A study of Mus musculus with 4 samples.

Results

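A small population of connective tissue cells of the mouse femur and tibia was defined by transcripts of Mmp3, Dio2, Megf6, Kcnj15, Chil1 and Fam180a. A cell was a member when it held at least 1 UMI (unique molecular identifier, 1 counted transcript) of at least 3 of these 6 genes, no UMI of Tnmd or Kera, and fewer than 10 UMIs of Prg4. This selected 355 of 15670 cells, 234 of 10063 (2.33%, exact Clopper-Pearson 95% interval 2.04 to 2.64%) in the young sample and 121 of 5607 (2.16%, 1.79 to 2.57%) in the old sample. These intervals, like all intervals given here, cover counting error only. The 6 genes were themselves named from these cells, so their levels in the members are given as a description.

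The cells came from 1 young (6 months) and 1 old (24 months) sample of untreated INK-ATTAC mice. The sources used here do not state the number of animals behind either of them, and a pool would still count as 1 sample. In the INK-ATTAC line part of the Ink4a promoter drives a caspase 8 fusion that a dimerising drug can switch on, and cells of both ages carry it. Marrow released with Liberase and bone digested with collagenase were combined, red cells were lysed, lineage-positive cells were depleted on magnets and live CD45- cells were sorted. Each sample gave a 10x 3′ RNA library and a matched library of CD24 antibody tags (CITE-seq, in which an oligonucleotide on the antibody is counted with the transcripts of the same cell). With 1 sample per age, no difference between the ages could be tested, and differences between animals and between libraries cannot be told apart from age. The RNA libraries held 82675434 UMIs in 11371 barcodes (young) and 68580402 UMIs in 6729 barcodes (old). The kept cells had medians of 6385 and 9711 UMIs, and the members were deeper than that, at 8356 and 15060. The 2 libraries shared 25 barcode sequences, none of them among the members.

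Mmp3 encodes stromelysin 1, a secreted metalloproteinase that cleaves proteoglycans and other matrix proteins and activates further collagenases. Dio2 encodes the type 2 deiodinase, which converts the prohormone thyroxine to active triiodothyronine inside cells. Megf6 encodes a secreted protein built of EGF repeats, Kcnj15 an inwardly rectifying potassium channel, and Chil1 a secreted chitinase-like glycoprotein found in cartilage and synovium. The genes used to set cells aside mark neighbouring tissues: Tnmd (tenomodulin) and Kera (keratocan) mark tendon and ligament, and Prg4 encodes lubricin, the lubricant made by the joint lining and superficial cartilage.

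The 250 bases before the annotated start were read for the genes of the rule, together with Matn4, from the RefSeq promoters of the mouse build GRCm38.p6 (7 of 8 genes looked up were matched, in 8 promoters). Edil3 had no entry. The motifs searched, on both strands, were the AP-1 site TGANTCA, the cAMP response element TGACGTCA and the TATA box TATAAA. They do not overlap in these windows. Over all 32851 promoters of 27025 genes, 6.75% held the first, 1.55% the second and 12.4% the third. The 3 promoters below are the only ones among the 8 that held any of them, and they are shown for that reason. Capitals mark the motifs, and positions count back from the annotated start.

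Mmp3, chr9:7445572-7445821, plus strand, AP-1 motif from -46 and TATA motif from -7: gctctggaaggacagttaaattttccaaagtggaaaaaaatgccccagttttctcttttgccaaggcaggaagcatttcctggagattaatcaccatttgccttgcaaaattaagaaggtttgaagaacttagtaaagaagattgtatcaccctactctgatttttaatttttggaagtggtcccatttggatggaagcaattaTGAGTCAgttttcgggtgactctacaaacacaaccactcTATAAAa

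Dio2, chr12:90739039-90739288, minus strand, cAMP response element from -95 and TATA motif from -30: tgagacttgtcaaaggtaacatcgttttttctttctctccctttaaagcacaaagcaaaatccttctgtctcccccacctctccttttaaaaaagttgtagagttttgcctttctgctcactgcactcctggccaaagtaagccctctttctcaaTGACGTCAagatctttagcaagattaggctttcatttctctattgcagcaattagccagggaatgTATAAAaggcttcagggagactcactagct

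Fam180a, chr6:35326142-35326391, minus strand, AP-1 motif from -48: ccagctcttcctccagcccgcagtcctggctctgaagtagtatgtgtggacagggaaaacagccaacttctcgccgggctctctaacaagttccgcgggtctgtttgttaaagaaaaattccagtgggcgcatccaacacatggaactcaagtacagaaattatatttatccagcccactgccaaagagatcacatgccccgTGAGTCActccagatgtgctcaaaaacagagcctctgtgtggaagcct

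The AP-1 letters thus stood in 2 of the 7 matched genes, the cAMP response element in 1 and the TATA letters in 2. A match describes these letters in these windows and is not a measured binding site.

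Mmp3 (ENSMUSG00000043613) was the most frequent of the 6 genes in both samples, with a UMI in 87.6% of young and 93.4% of old members. Its UMIs per cell ran from 0 to 346 with a median of 6.5 in the young sample and from 0 to 142 with a median of 10 in the old sample. Levels are given as CPM, the summed UMIs of a gene scaled to a common total for each sample and cell set. Mmp3 stood at 1663 (young) and 1237 (old) CPM in the members. Dio2 (ENSMUSG00000007682) was found in 82.9% and 71.9% of members, at 780.3 and 429 CPM. Megf6 (ENSMUSG00000057751) was found in 66.2% and 72.7%, at 143 and 168 CPM. All 3 of these genes were found in 103 young (44.0%) and 50 old members (41.3%), and 196 (83.8%) and 107 (88.4%) held at least 1 of the other 3 genes. The set Mmp3, Dio2 and Megf6 with none of the others was the most frequent, with 38 young (16.2%) and 14 old members (11.6%). Mmp3 and Dio2 were found together in 167 young (71.4%) and 80 old members (66.1%).

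The other 3 genes were found in a minority of members or in about as many cells as not. Kcnj15 (ENSMUSG00000062609) had a UMI in 38.0% of young and 52.9% of old members. Fam180a (ENSMUSG00000047420) had one in 36.8% and 42.1%, at 70.0 and 68.8 CPM. Chil1 (ENSMUSG00000064246) was found in 29.9% and 28.1% and was uneven: 10 cells held 72.1% (young) and 87.3% (old) of its UMIs in the members. Most members met the rule narrowly. In the young sample 153 members had 3 of the 6 genes, 67 had 4, 12 had 5 and 2 had all 6, and in the old sample these numbers were 66, 37, 17 and 1.

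At the edges of the rule, 356 young and 165 old cells had 2 of the 6 genes and passed the exclusions. In these, Mmp3 stood at 707 and 346 CPM, and Dio2 at 416 and 213. The exclusions removed 138 of 372 young and 170 of 291 old cells with at least 3 of the genes. Of these, 58 and 81 held Tnmd, 17 and 23 held Kera, and 77 and 84 had 10 or more Prg4 UMIs. Prg4 itself was at 0 in 136 young and 59 old members, while 28 and 22 members had 5 to 9 Prg4 UMIs. A further 23 and 28 cells that lay just outside had 10 to 19. Doublet calls (Scrublet) fell on 10 young and 2 old members.

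Other cells of the same samples served for comparison, in sets drawn by UMI rules. The 9 genes of the membership rule were left out of every count, and Col1a2, Col3a1 and Sparc, which chose the collagen-producing cells, are not results in that comparison. Other collagen-producing cells had at least 3 UMIs of each of Col1a2, Col3a1 and Sparc (3536 young and 1773 old cells). Tnmd and Kera cells had at least 1 UMI of both genes (25 and 16 cells). Prg4-high cells had at least 10 Prg4 UMIs (1399 and 804 cells). Of the members, 224 (95.7%) and 120 (99.2%) also met the collagen criterion.

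Each of the 6 genes was also left out of the rule in turn, with cells chosen by at least 3 of the other 5. The 6 genes had been named together from these same cells, so these shares describe how they overlap and are no independent check. They are set beside the collagen-producing cells that the other 5 genes did not choose. In the young sample 72.6% of cells chosen without Mmp3 had a Mmp3 UMI (exact 95% interval 63.1 to 80.9%), against 20.3% of the cells not so chosen. In the old sample these shares were 87.1% (76.1 to 94.3%) and 23.3%. Dio2 was found in 65.2% against 17.0% (young) and in 56.4% against 13.8% (old). Megf6 was found in 48.4% against 9.91% (young) and in 59.3% against 13.6% (old). Fam180a showed the smallest ratio, at 21.3% against 7.71% (young) and 25.5% against 9.72% (old).

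Cells rich in hemoglobin, which should lack these genes, served as a guide to the background from free RNA. They had at least 100 UMIs of Hba-a1 and Hbb-bs together. Members and cells that met the collagen, Tnmd and Kera or Prg4-high criteria were left out of them. That choice also removed barcodes with much connective tissue RNA, so the background may be understated. Of these cells 2.82% (young) and 1.15% (old) held a Mmp3 UMI, although their median depth (13878 and 15279 UMIs) was at or above that of the members. The difference was also seen at equal depth. With every cell thinned to 2000 UMIs, Mmp3 was found in 58.5% of young cells chosen without it against 12.2% of the cells not so chosen (62.9% against 11.7% for the old sample). Likewise Dio2 was found in 42.1% against 10.2% (young) and in 34.6% against 6.13% (old) after thinning.

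**Figure D1:**
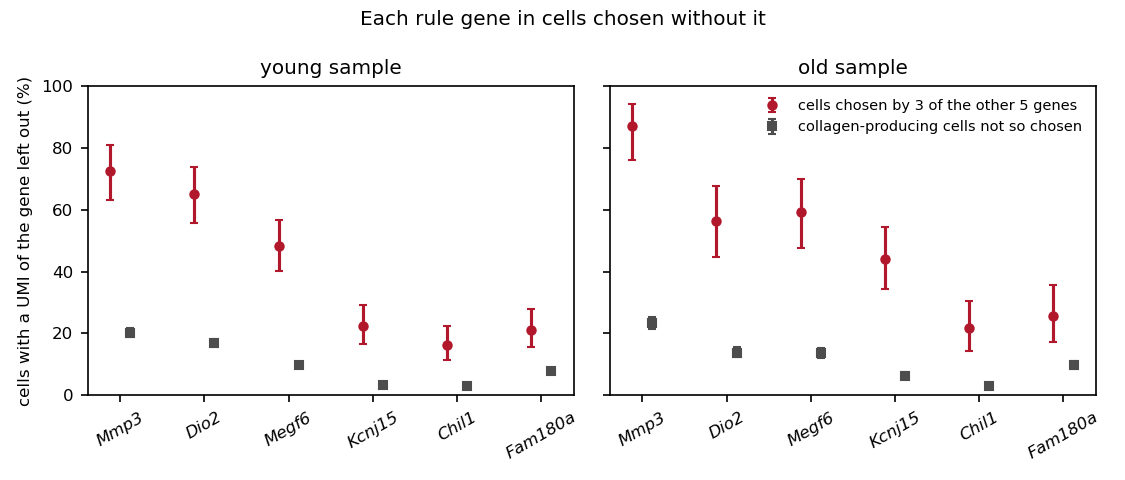
Percent of cells with a UMI of each of the 6 genes (vertical axis) in cells chosen by at least 3 of the other 5 genes (red circles) and in collagen-producing cells not so chosen (grey squares), by sample; bars are exact 95% intervals. All 6 genes lay higher in the chosen cells of both samples, from 72.6% against 20.3% for Mmp3 to 21.3% against 7.71% for Fam180a in the young sample.

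Gene levels were compared on UMIs summed per sample and cell set, with the sample as a block (edgeR quasi-likelihood F test, two-sided, Benjamini-Hochberg adjustment over all genes tested). Each such test rests on 4 sums from 2 samples with 1 residual degree of freedom. The edgeR fit shares variance over genes, so the p-values rest on the spread of other genes as well as on that between these sums. They do not speak to further animals. Because the 6 genes were named from the same cells, genes that travel with them are described by these tests rather than independently supported. The same holds for genes that travel with Tnmd, Kera or Prg4, which set the members apart from the Tnmd and Kera cells and the Prg4-high cells.

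Against other collagen-producing cells, 224 of 13905 genes (1.61%) were higher in the members and 340 (2.45%) were lower at an adjusted p under 0.05. The first count holds Col1a2 and Sparc, and 222 genes remain without them. Matn4 (ENSMUSG00000016995), a matrilin that links matrix filaments, stood at 289.8 CPM in young and 194 in old members. In the other collagen-producing cells it stood at 33.9 and 34.0. The log2 difference was 2.87 ± 0.18 (SE, edgeR adjusted p = 0.00177). Edil3 (ENSMUSG00000034488), a secreted integrin ligand with EGF repeats, stood at 383 and 347 in the members against 113 and 85.1, a log2 difference of 1.96 ± 0.14 (edgeR adjusted p = 0.00265).

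Both genes were spread over many members, though not alike. Matn4 was found in 99 young and 49 old members and Edil3 in 204 and 111. Both were present in 83 and 46 members, while 14 (5.98%) and 7 (5.79%) members had neither. Removal of the cell with the most Matn4 UMIs left 272 and 168 CPM.

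Clu, which encodes the secreted chaperone clusterin, stood at 2406 (young) and 1235 (old) CPM in the members against 312 and 339.8 in the other collagen-producing cells (log2 difference 2.47 ± 0.25, edgeR adjusted p = 0.00584). Ecrg4, a gene for a secreted peptide precursor, stood at 1967 and 2305 against 533 and 502 (2.10 ± 0.13). Crispld1 stood at 402 and 137 against 67 and 36.6, and its relative Crispld2 at 899 and 835 against 279 and 190.1. Both encode secreted cysteine-rich proteins. Npnt, which encodes nephronectin, a basement membrane ligand of integrins, stood at 72.5 and 119.8 against 22.6 and 29.8. For each of these 5 genes the lower of the 2 member values lay above the higher of the 2 other values.

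Kcnk2, a background potassium channel, stood at 88.5 and 73.9 against 18.4 and 22.5 CPM (log2 difference 2.06 ± 0.18). Camk4, a calcium-dependent kinase, stood at 58.7 and 72.4 against 15.6 and 15.7, and Cep128, a centriole protein gene, at 61.3 and 60.2 against 16.2 and 14.1. H19, an imprinted long non-coding RNA, stood at 150.3 and 116 against 23.9 and 46.5. Both samples showed each difference, but genes were named only where the sign was the same in both, so this follows from the choice.

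Some of the highest genes rested on few cells. Snorc, a cartilage proteoglycan, had the highest log2 difference (4.01 ± 0.68, edgeR adjusted p = 0.0278), at 280.3 and 58.1 CPM in the members against 38.0 and 0.593. Its UMIs came from 11 young and 5 old members, and 1 cell held 54.7% (young) and 95.6% (old) of them. Without that cell the members stood at 127 and 2.55. Slpi, a secreted protease inhibitor, was found in 22 and 11 members, with 25.1% and 50.6% of its UMIs in 1 cell. Chad (chondroadherin) was found in 139 and 34 members, and in the old sample 1 cell held 73.7% of its UMIs. Without the top cell of each sample, all 14 genes named as higher still lay above the other collagen-producing cells in both samples.

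**Figure D2:**
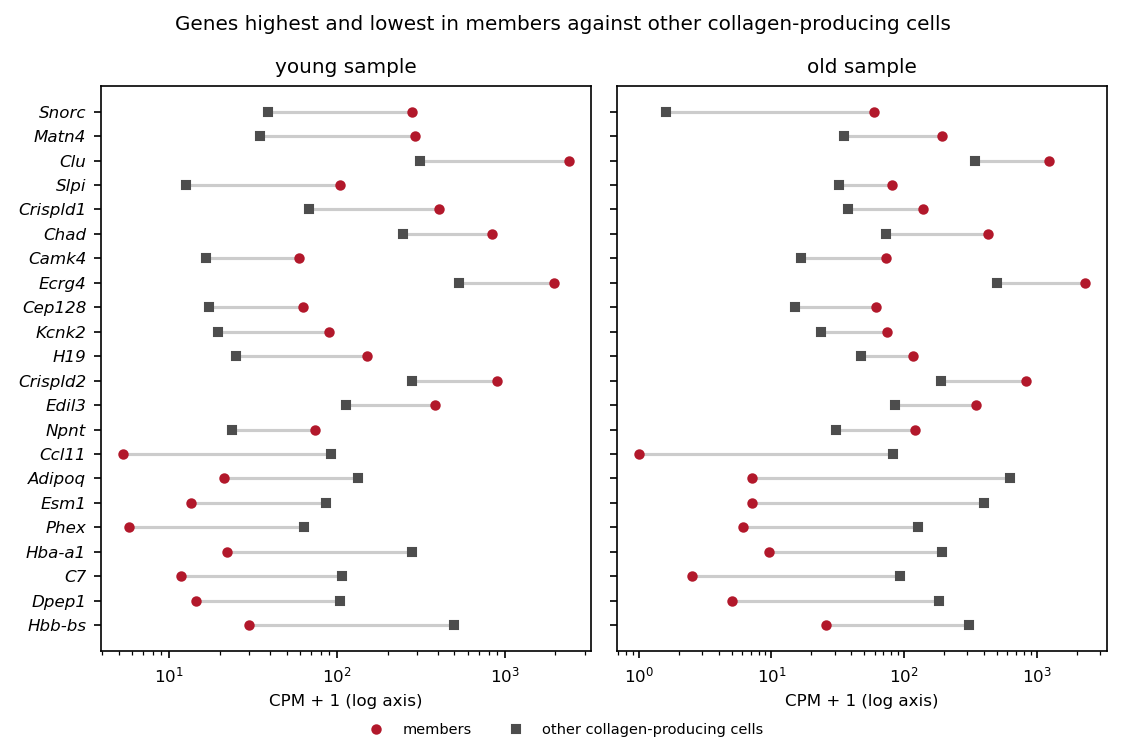
CPM plus 1 (horizontal log axis) of the 14 genes with the highest and the 8 with the lowest log2 difference between members (red circles) and other collagen-producing cells (grey squares), by sample, 1 sum per sample and set. Matn4 stood at 289.8 and 194 in the members against 33.9 and 34.0, and Ccl11 at 4.32 and 0 against 91.3 and 81.5.

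Among the genes that fell, Adipoq (adiponectin, secreted by adipocytes and by adipogenic marrow stroma) stood at 20.3 and 6.12 CPM in the members against 133 and 631 (log2 difference -4.33 ± 0.76, edgeR adjusted p = 0.0336). Phex, an endopeptidase of osteoblasts and osteocytes that acts in phosphate balance, stood at 4.75 and 5.10 against 62.4 and 126. Ccl11, the chemokine eotaxin, stood at 4.32 in young members against 91.3. It had no UMI in old members and 1788 UMIs in the old collagen-producing cells, so it was at least 53.3-fold lower there (floor of 3 counts over the members of that sample). Esm1, C7 and Dpep1 fell as well, with log2 differences of -4.23, -3.95 and -3.85. Of these, C7 had 3 UMIs in old members, 60.6-fold lower (95% counting interval 20.7 to 294). The hemoglobin transcripts Hba-a1 and Hbb-bs were lower too, at 21.2 and 8.67 against 277 and 193 for Hba-a1. Both hemoglobin calls were lost when cells with at least 2 blood markers were left out of both sets.

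Cell type markers were then counted by list. Of 6 tendon markers outside the rule, 5 rose and Mkx did not pass (log2 difference 1.09, edgeR adjusted p = 0.0539), with a list median of 1.17 against a median of -0.01 over all genes tested. Scx, the transcription factor that marks tendon progenitors, stood at 36.3 and 43.9 CPM against 19.6 and 18.1. Fmod (fibromodulin), a small proteoglycan of tendon collagen fibrils, stood at 1410.3 and 1730.2 against 517 and 461. Comp, a pentameric adaptor of tendon and cartilage, stood at 4143 and 4152 against 2114 and 1686. Thbs4 showed the smallest difference of the 5 (0.84 ± 0.12).

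In single cells, at least 3 of these 6 tendon markers were found in 198 (84.6%) young and 90 (74.4%) old members. Of the other collagen-producing cells, 25.8% and 18.4% had that many. The shares were 38.6% and 31.8% of Prg4-high cells and 92% and 100% of Tnmd and Kera cells. Tnmd and Kera themselves were at 0 in the members by rule. With cells thinned to 2000 UMIs, Scx no longer passed (log2 difference 0.87, edgeR adjusted p = 0.29).

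Of 9 chondrocyte markers, 7 rose (Snorc, Matn3, Cnmd, Col9a2, Hapln1, Acan and Sox9), with a list median of 2.56. Acan (aggrecan), the main cartilage proteoglycan, was found in 33.8% of young and 54.5% of old members, at 139 and 179 CPM against 65.3 and 72.3. Sox9, the transcription factor of cartilage, was found in 41.0% and 41.3%, at 120.5 and 130.0 against 71.8 and 58.6. The more specific cartilage genes were rare: Cnmd had 100 UMIs in young and 1 UMI in old members, and Matn3 had 39 and 8. Of the Col2a1 UMIs of old members, 99.5% came from 1 cell. At least 3 chondrocyte markers were found in 33 (14.1%) young and 17 (14%) old members. The shares were 4.33% and 4.23% in other collagen-producing cells, but 13.0% and 14.1% in Prg4-high cells. In Prg4-high cells Sox9 stood at 201 and 154 CPM, above the members. Against that set 4 of the 9 markers rose in the members (Cnmd, Matn3, Col9a2 and Snorc) and the other 5 did not pass. In old members these 4 rested on very few cells. There 1 cell held 95.6% of the Snorc, 87.5% of the Matn3 and 77.3% of the Col9a2 UMIs. Without its top cell Snorc stood at 127 and 2.55 CPM in the members, below Prg4-high cells at 170 and 36.4.

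When cells with a Snorc UMI were left out of both sets, Acan (1.22, edgeR adjusted p = 0.0204) and Hapln1 (1.36, 0.0431) still passed. Sox9 (0.58, 0.268), Col9a2 (0.74, 0.578) and Chad (1.31, 0.0599) then did not. Matn4 stayed at 2.84 (0.0118).

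Markers of marrow stroma fell, 7 of 8 with a list median of -2.72. Cxcl12, the chemokine that retains blood progenitors in marrow, stood at 775 and 470.1 CPM against 3176 and 7526. Lepr, the leptin receptor that marks perivascular stroma, stood at 68.7 and 51.0 against 229 and 501. Kitl, Lpl, Hp, Ebf3 and Adipoq fell as well. Of 6 pericyte and smooth muscle markers 4 fell (Rgs5, Myh11, Des and Notch3).

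Osteoblast markers were mixed. Phex and Dmp1 fell, while the other 5 of 7 did not pass. Bglap (osteocalcin) stood at 495 and 339 against 595 and 778, and Ibsp (bone sialoprotein) at 2786 and 2219.7 against 1804 and 3045. Ctsk, the collagen-degrading cathepsin that also marks periosteal cells, was the only one of 6 periosteum markers that rose (888 and 1044 against 459.7 and 491). At least 3 periosteum markers were found in 222 young (94.9%) and 119 old members (98.3%). Most cells of the other sets met this too: 86.6% and 85.7% of other collagen-producing cells, 74.9% and 88.3% of Prg4-high cells, and 84% and 100% of Tnmd and Kera cells. Postn, another periosteum marker, stood at 342 and 557 against 1578 and 820.4 in other collagen-producing cells (edgeR adjusted p = 0.13). Of 10 fibroblast markers 3 fell (Pi16, Dpp4 and Cd34, which mark fibroblasts of adventitia and fascia), and Pdgfra was found in 193 young and 112 old members.

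Markers of other lineages were low in the members. The 6 endothelial markers summed to 1.73 and 2.55 CPM, the 5 muscle markers to 2.59 and 2.55 and the 5 perineurium markers to 1.30 and 0.510. Schwann cell markers summed to 63.0 and 43.9, against 56.8 and 88.2 in other collagen-producing cells. The 9 blood markers summed to 1938 in young and 857 in old members, against 1191 and 1940.3 in other collagen-producing cells and 60329.5 and 76270.4 in hemoglobin-rich cells. At least 3 blood markers were found in 12 young (5.13%) and 16 old members (13.2%), against 2.12% and 13.1% of other collagen-producing cells. In the members 1 cell held 58.3% (young) and 95.2% (old) of the S100a9 UMIs.

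**Figure D3:**
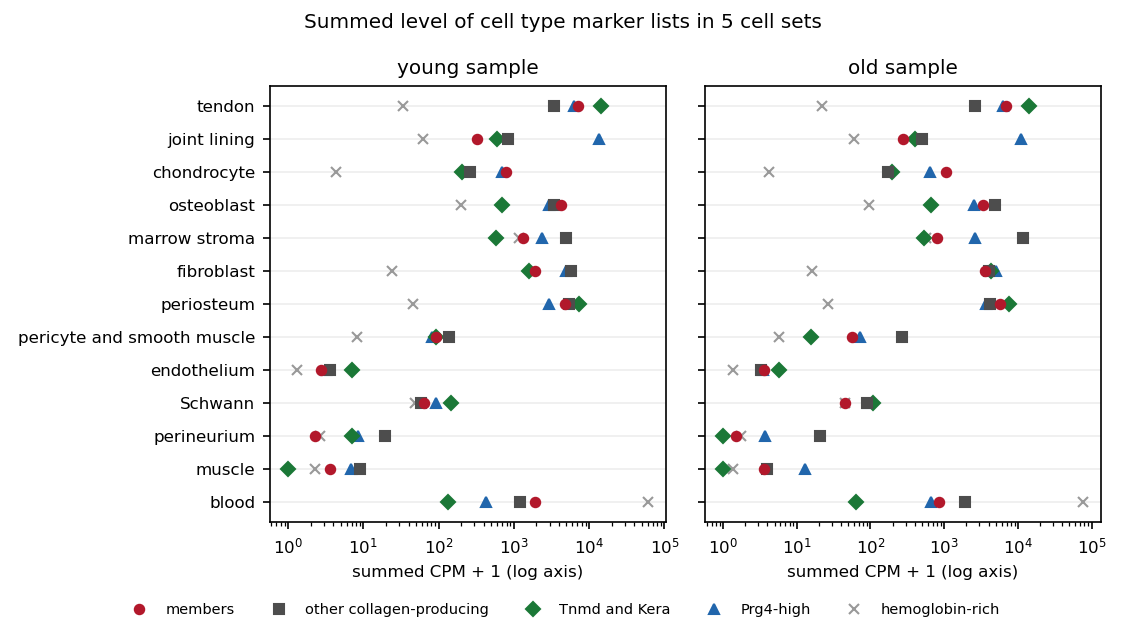
Summed CPM plus 1 (horizontal log axis) of 13 cell type marker lists in the members (red circles), other collagen-producing (grey squares), Tnmd and Kera (green diamonds), Prg4-high (blue triangles) and hemoglobin-rich cells (crosses), by sample. The tendon list, which includes Tnmd and Kera, stood at 7228 and 6955 in the members, between other collagen-producing cells (3422 and 2652) and Tnmd and Kera cells (14302 and 14101).

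The matrix of the members was compared by protein family. Of 44 collagen genes 36 were tested, and of the 34 that did not choose the comparison cells 6 rose and 3 fell (median 0.22). Col8a2 stood at 212 and 144 CPM against 67.1 and 41.0, and Col12a1, a collagen that decorates fibrils in tendon and periosteum, at 969 and 778 against 507 and 353. Col1a1, the main fibril collagen of bone and tendon, stood at 11308 and 14766 against 9061 and 9696 (edgeR adjusted p = 0.0535). Of 11 small leucine-rich proteoglycans 6 rose and 1 fell (median 0.67). Lum (lumican) stood at 6297 and 6291 against 2732 and 2525, and Omd (osteomodulin) at 679 and 430.4 against 258 and 179, whereas Podn stood at 24.6 and 35.2 against 47.5 and 66.1.

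Of 31 matrix adaptor genes 29 besides Sparc were tested, of which 10 rose and 5 fell (median 0.22). The matrilins Matn2, Matn3 and Matn4 rose together with Comp, Thbs2, Thbs4, Cilp2, Fbn2, Fbln7 and Edil3. The elastic fibre genes Fbn1, Fbln5, Ltbp4 and Efemp1 fell with Tnxb. Efemp1 stood at 15.1 and 16.3 against 124 and 169, and Fbn1 at 92.4 and 233 against 576 and 550.0. Of 45 genes of metalloproteinases, ADAMTS proteins and their inhibitors, 30 besides Mmp3 were tested, of which only Mmp13 rose. Mmp13 is collagenase 3, a proteinase that stromelysins can activate, and it stood at 2034 and 1566 against 613 and 624 (log2 difference 1.59 ± 0.13). Adamts1 fell. Mmp2 stood at 942 and 1584 against 722 and 815 (edgeR adjusted p = 0.0718).

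Of 14 genes of thyroid hormone transport, conversion and reception, 11 besides Dio2 were tested and none rose, and Crym, which encodes a thyroid hormone binding protein, fell. Of 92 potassium channel genes 28 besides Kcnj15 were tested, of which Kcns1, Kcnk2 and Kcnma1 rose and Kcnip3 fell. Kcnma1, the large calcium-activated channel, stood at 78.6 and 91.8 CPM against 31.1 and 29.1. Of 12 EGF-repeat genes 8 besides Megf6 were tested, of which Edil3 and Scube1 rose.

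Signalling genes moved in both directions. Of 13 WNT antagonists 9 were tested, of which Notum, Wif1 and Sfrp2 rose and Sfrp1 and Dkk2 fell. Wif1, which binds WNT ligands outside the cell, stood at 194 and 178 against 58.1 and 69.7. Sfrp1 stood at 6.91 and 10.2 against 56.8 and 99.3. Of 24 BMP and TGF-beta ligands and antagonists 21 were tested, of which Tgfb3 rose and Bmp3, Bmp4, Bmp6, Chrdl1 and Fst fell. Tgfb3 stood at 120.5 and 113 against 81.8 and 68.8, and its call (edgeR adjusted p = 0.0403) was lost in 7 alternatives, among them RLE size factors (0.0565) and thinning (0.177). Of 10 genes of the IGF axis, Igfbp2 and Igfbp7 rose and Igfbp4 and Igfbp5 fell.

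Of 29 transcription factors of limb and connective tissue, Prrx2, Scx, Sox9 and Tcf4 rose and Meox1 fell. Prrx2, a homeobox gene of limb mesenchyme, stood at 346 and 285 against 129 and 103. Of 39 Hox genes 26 were tested, and 1 passed. This was Hoxc10, a hindlimb Hox gene, at 111 and 83.1 against 64.6 and 57.8, whose call was lost in 7 alternatives, among them RLE size factors (edgeR adjusted p = 0.0585) and doublet removal (0.0655).

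Of 13 inflammatory genes 12 were tested and 8 fell, with a list median of -1.42. Ccl2, a monocyte chemokine, stood at 16.0 and 59.7 CPM against 350.0 and 215. Il6 stood at 31.5 and 27.5 against 79.9 and 85.7, and Ptgs2 (cyclooxygenase 2) at 29.4 and 9.69 against 122 and 53.6. None of 13 immediate-early and stress genes and none of 10 cell cycle genes passed. Fos stood at 2882 and 2803 against 2722 and 2691. Among 11 genes of arrest and survival, Cdkn1c, a cyclin-dependent kinase inhibitor, rose (475 and 410.5 against 218 and 236), while Cdkn1a stood at 171 and 187 against 312 and 193 (edgeR adjusted p = 0.446).

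Of the 110 named or listed genes called against other collagen-producing cells, 76 lost their call without the block by sample and kept their direction. In the alternatives that kept the block Kcnip3 lost its call in 7, Dmp1 and Saa3 in 5, and Bgn, Bmp3, Ccl2, Igfbp7, Kitl, Notum, Podn and Prelp in 4.

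Against Tnmd and Kera cells, 10 of 8943 genes (0.112%) were higher in the members and 12 (0.134%) were lower. The small number of these cells (25 and 16) limits this comparison. Genes of the rule were found in these cells too, some of them with few UMIs. Mmp3 stood at 141 (young) and 1149 (old) CPM, and Dio2 at 398 and 314. Megf6 had 11 and 19 UMIs, Chil1 had 43 and 11, Kcnj15 had 1 and 9, and Fam180a had 1 in each sample. Matn4 stood at 122 and 38.6 and did not differ past the threshold (log2 difference 1.65 ± 0.31, edgeR adjusted p = 0.151), nor did Edil3 (0.92 ± 0.22, 0.256). Of the tendon markers Thbs4 fell in the members, at 782 and 584 against 3615 and 5159 (-2.70 ± 0.29, edgeR adjusted p = 0.0272). Scx stood at 36.3 and 43.9 against 110.1 and 116 (adjusted p = 0.139) and Fmod at 1410.3 and 1730.2 against 4159.6 and 3412 (adjusted p = 0.13).

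Genes of bone formation were higher in the summed UMIs of the members than in those of Tnmd and Kera cells. At least 3 osteoblast markers were found in a minority of members (29.5% and 32.2%), and Bglap in 68 young and 47 old members. Ibsp stood at 2786 and 2219.7 against 612 and 512 CPM (log2 difference 2.13 ± 0.22, edgeR adjusted p = 0.0203). Alpl, the alkaline phosphatase of mineralising cells, stood at 204 and 244 against 48.9 and 43.4, and Bglap at 495 and 339 against 12.2 and 43.4. These are 3 of the 5 osteoblast markers tested (of 7 listed), and the list median was 2.26 against 0.00 over all genes. Thinning to 2000 UMIs ended the calls of Alpl (edgeR adjusted p = 0.106) and H19 (0.199). Mmp13 and Igfbp2 also rose, and both lost their call without the block by sample (0.081 and 0.615). H19 stood at 150.3 and 116 against 12.2 and 4.83, from 2 and 1 UMIs in the Tnmd and Kera cells.

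Meox1, a homeobox gene of somites and their derivatives, stood at 0.864 and 1.53 CPM in the members against 110.1 and 53.1, from 2 and 3 UMIs in the members (127-fold lower, 95% counting interval 30.5 to 1133, and 34.7-fold lower, 9.17 to 194). Mfap4 and Fibin also fell, at 51.8 and 33.1 against 495 and 227 and at 87.2 and 98.4 against 636 and 873. Chrdl1, a BMP antagonist, and Abca8b fell as well.

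The genes with the highest log2 differences against Tnmd and Kera cells were Retnlg, Snorc, S100a8 and S100a9. Retnlg and Snorc had no UMI in Tnmd and Kera cells, so Retnlg was at least 15.3-fold (young) and 8.84-fold (old) higher in the members (floor of 3 counts over the set of each sample). Retnlg, S100a8 and S100a9 are neutrophil genes, and 1 cell held 54.1% and 94.8% of the Retnlg, 52.0% and 94.4% of the S100a8 and 58.3% and 95.2% of the S100a9 UMIs of the members. DESeq2 called neither Retnlg nor Snorc, and the edgeR fit without the block by sample did not call them either (adjusted p = 0.0844 and 0.347). Without the top cell S100a9 stood at 20.9 in old members and at 29.0 in old Tnmd and Kera cells.

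Against Prg4-high cells, 570 of 12856 genes (4.43%) were higher in the members and 717 (5.58%) were lower. All 6 joint lining markers other than Prg4 fell, with a list median of -3.56 against -0.01 over all genes. The members were limited in Prg4 and these cells were chosen by it, so this fall describes the choice of cells and is no independent support. Clic5, an ion channel family member, had no UMI in the members of either sample and stood at 79.0 and 36.0 CPM in Prg4-high cells. Htra4 stood at 9.50 and 9.18 against 167 and 207. Has1, a hyaluronan synthase, stood at 85.1 and 35.2 against 293 and 407. Pla1a, a phospholipase gene, had 1 UMI in the members of each sample and stood at 75.9 and 69.2 in Prg4-high cells (176-fold lower in the young sample, 95% counting interval 31.5 to 6949). Msmp, Pcsk6, Calcrl and Scg3 fell as well.

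Matn4 rose against Prg4-high cells too, at 289.8 and 194 against 29.1 and 24.6 CPM (log2 difference 3.12 ± 0.13, edgeR adjusted p = 2.06e-05). Edil3 rose by 2.10 ± 0.16. Mmp13 stood at 2034 and 1566 against 145 and 371 (2.91 ± 0.36), and Cpxm1, a carboxypeptidase-like gene, at 457 and 454 against 51.7 and 75.7. Slpi, Ctla2a, Cep128, H19 and Kcnk2 completed the 8 highest genes, and of these Ctla2a had 62.4% of its young UMIs in 1 cell. With members of at least 4 of the 6 genes Ctla2a did not pass (log2 difference 0.68, edgeR adjusted p = 0.413). Clu and Ecrg4, high against other collagen-producing cells, did not pass here, at 2164 and 1265 for Clu and at 4019 and 1768 for Ecrg4 in Prg4-high cells.

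Relative to Prg4-high cells the summed UMIs of the members also held more transcripts of bone and periosteum. At least 3 osteoblast markers were found in 29.5% of young and 32.2% of old members, against 13.1% and 16.3% of Prg4-high cells. Bglap, Bglap2, Alpl and Sp7 rose and Phex fell among 6 osteoblast markers, and Ctsk, Postn, Ogn and Aspn rose among 6 periosteum markers. Postn stood at 342 and 557 against 168 and 338, and 1 cell held 44.8% of its UMIs in young members. The direction of Postn turned when members needed at least 4 of the 6 genes (log2 difference -0.41). Under that rule Bglap (edgeR adjusted p = 0.0816), Alpl (0.056) and Aspn (0.148) also lost their call. Fmod, Mkx and Scx rose among 6 tendon markers, and Scx lost its call after thinning (0.865). Sp7 and Mkx each lost theirs in 3 of the alternatives that kept the block. Of 34 collagens 13 rose and 4 fell, with Col12a1 at 969 and 778 against 149 and 233 and Col1a1 at 11308 and 14766 against 4481 and 5879. Of 10 fibroblast markers Thy1 rose and 6 fell. Inflammatory genes fell, 8 of 12 with a list median of -1.93.

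Of 29 transcription factors 8 rose and 6 fell against Prg4-high cells. Runx2, the transcription factor of osteoblast commitment, stood at 153 and 133 against 61.3 and 60.0, and Foxp2 at 50.1 and 36.2 against 13.0 and 12.5. Osr1 and Osr2, which mark joint and connective tissue progenitors, fell, with Osr1 at 24.2 and 36.2 against 45.3 and 48.5. Of 23 BMP and TGF-beta genes Tgfb3 rose and 8 fell, Gdf6, Bmp2 and Grem1 among them.

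The CD24 antibody, which is no part of the rule, was low on the members. Median antibody UMIs per cell were 99.5 in young and 102 in old members, against 90 and 89 in other collagen-producing cells, 83 and 87 in Prg4-high cells and 69 and 82 in Tnmd and Kera cells. Hemoglobin-rich cells stood at 3489 and 4965.5. Antibody counts of single members ran from 16 to 4508 (young) and from 27 to 1035 (old).

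A cell was called CD24+ above the Otsu threshold of its library (319 antibody UMIs for the young and 410 for the old sample). By that threshold 31 of 234 young members (13.2%, exact 95% interval 9.18 to 18.3%) and 9 of 121 old members (7.44%, 3.46 to 13.7%) were CD24+. The shares among other collagen-producing cells were 10.7% and 6.26%, and among Prg4-high cells 11.2% and 7.21%, all of them inside the intervals of the members. The share among Tnmd and Kera cells was 0 of 25 (exact 95% interval up to 13.7%) and 1 of 16.

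The Cd24a transcript was rare, with a UMI in 6.41% of young and 7.44% of old members. In the young sample it was found in 8 of 31 CD24+ and 7 of 203 CD24- members, and in the old sample in 2 of 9 and 7 of 112. The position of the threshold set the share: 32 young and 15 old members lay within 1.5-fold of it, and a threshold drawn over collagen-producing cells alone (154 and 162 UMIs) gave 34.6% and 28.1%.

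**Figure D4:**
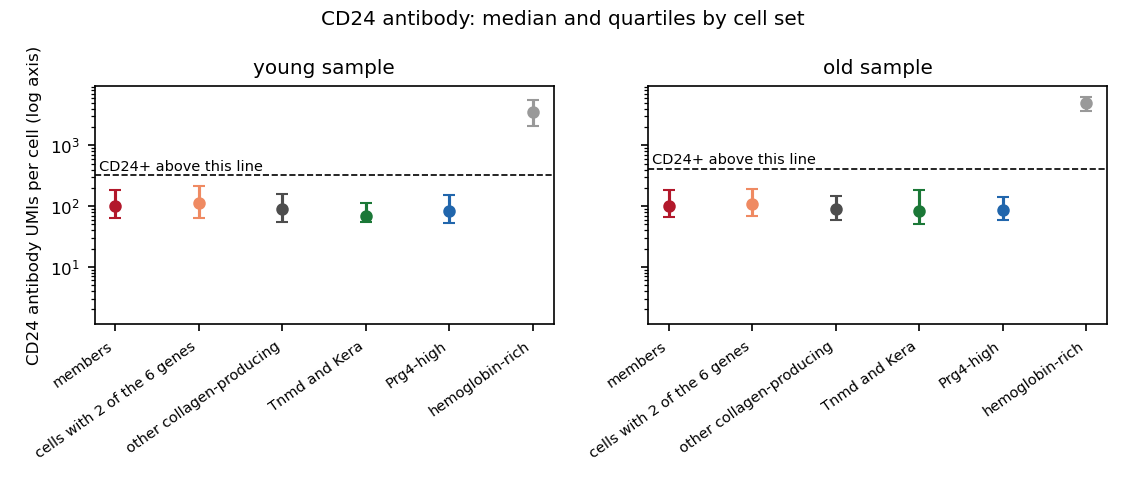
CD24 antibody UMIs per cell (vertical log axis) in 6 cell sets, by sample; points are medians over cells, bars are quartiles and the dashed line is the CD24+ threshold. The members had medians of 99.5 and 102, close to the other connective tissue sets and below hemoglobin-rich cells at 3489 and 4965.5.

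Old and young members were compared over 3241 genes, without a test. Between them 720 genes had Poisson 95% intervals that lay apart, and 47 genes (1.45%) were more than 2-fold higher and 37 (1.14%) more than 2-fold lower in the old sample. The median log2 ratio over all genes was 0.03. Angptl1, a secreted angiopoietin-like gene, stood at 164 CPM in young and 548 in old members (95% counting intervals 148 to 181 and 515 to 581). In other collagen-producing cells it stood at 253 and 340.2. Tppp3, a tubulin-binding protein gene of tendon sheath cells, stood at 64.8 and 210.1 in the members, whereas other collagen-producing cells stood at 349 and 267. Vcan, the proteoglycan versican, stood at 52.3 and 156 against 303 and 211. Bpgm, an enzyme gene best known from red cells, stood at 14.2 and 59.7 against 14.2 and 17.2, and Gda and Crabp2 were also higher in old members.

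Several of the lower genes were lower in the old sample in other cells as well. Gm8797 stood at 187 in young and 10.2 in old members and at 197 and 10.3 in other collagen-producing cells, and Gm47283 at 55.7 and 13.3 and at 62.7 and 15.0. Mia, a secreted protein of cartilage, stood at 90.3 and 14.3 in the members and at 19 and 4.33 in other collagen-producing cells. Crispld1 stood at 402 and 137 in the members and at 67 and 36.6 in the others. Myoc (myocilin) stood at 799.7 and 288 in the members and at 503 and 419 in the others. Arhgdib stood at 63.0 and 20.9 in the members but at 28.8 and 45.6 in the others.

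**Figure D5:**
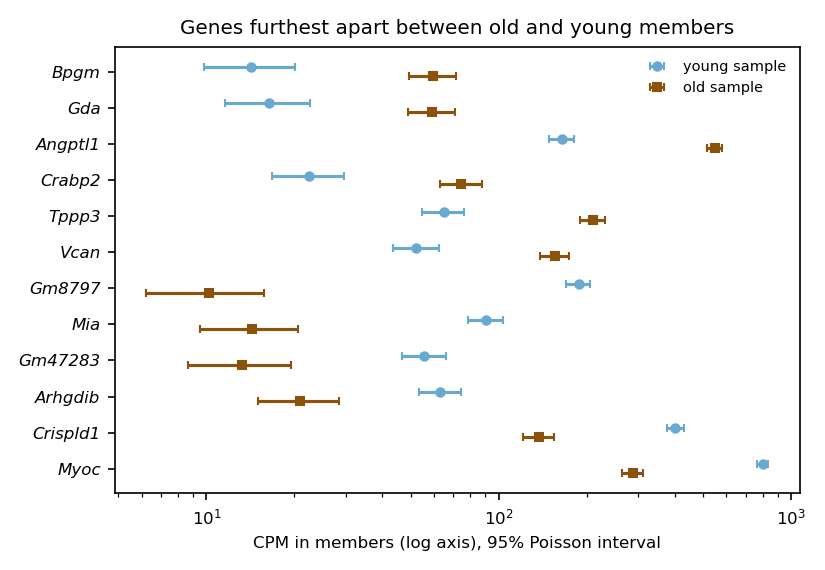
CPM in the members (horizontal log axis) of the 6 genes with the highest and the 6 with the lowest old to young ratio, for the young (blue circles) and the old sample (brown squares); bars are exact Poisson 95% intervals, 1 sample per age. Angptl1 stood at 164 and 548 and Gm8797 at 187 and 10.2.

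By list, 4 of 8 fibroblast markers were over 2-fold higher in old members (Mfap5, Thy1, Clec3b and Col14a1, list median 1.00). Clec3b stood at 113 and 429, with 30.2% of the old UMIs in 1 cell, and Thy1 at 89.8 and 213. Of 27 matrix adaptor genes 6 were higher (Fn1, Fbn1, Thbs3, Fbln2, Cilp and Tnxb) and Sparcl1 was lower. Fn1 (fibronectin) stood at 1098 and 2856 in the members and at 2942 and 2763 in other collagen-producing cells. Of 10 IGF axis genes Igfbp3 was higher and Igfbp2 lower, but 1 cell held 48.3% of the old Igfbp3 UMIs. Igfbp2 stood at 259 and 16.8, from 40 young and 4 old members. None of 9 small leucine-rich proteoglycans, none of 15 transcription factors and none of 4 tendon markers differed by more than 2-fold with intervals apart.

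Among inflammatory genes, Cxcl1 stood at 504 in young and 162 in old members, and Cxcl2 and Ccl7 were lower in old members too. Ccl2 was higher in old members, but 1 cell held 94.0% of its old UMIs. Cdkn2a, the gene of p16Ink4a, had 1 UMI in 1 of 234 young members (0.427%) and 35 UMIs in 9 of 121 old members (7.44%). In other collagen-producing cells it was found in 0.933% of young and 2.82% of old cells, and in Prg4-high cells in 1.22% and 6.84%. Tnmd and Kera cells held 0 (young) and 19 (old) Cdkn2a UMIs. In the old sample this was 91.7 CPM, above the 17.8 CPM of the old members (edgeR adjusted p = 0.183 over both samples). With cells thinned to 2000 UMIs, 0% of young and 1.65% of old members had a Cdkn2a UMI, while the other collagen-producing cells then had 0.374% and 0.742%.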

How the data were processed

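RNA and CD24 antibody tags were measured in single cells of 1 young and 1 old preparation of mouse bone, each deposited as an RNA and an antibody sample (4 in all). The authors counted reads per gene and per antibody with Cell Ranger (6.1.1 in the matrix headers, mm10 and Seurat 4.0 in the submitters' notes) and deposited raw UMI counts for the barcodes called as cells. Barcodes with at least 200 genes and at most 20% mitochondrial UMIs were kept (scanpy 1.11.5, numpy 2.4.6, scipy 1.17.1), which left 10063 of 11371 and 5607 of 6729. No cells were clustered. Doublets were called with Scrublet and kept, and their removal was an alternative.

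The members, the gene lists and the tests were chosen with earlier results of these data known. Raw counts were summed per preparation and cell set and tested with edgeR 4.0.16 in R 4.3.3 (TMM, filterByExpr, quasi-likelihood F test), with the preparation as a block because both sums of a pair come from the same cell suspension. The 9 genes of the rules were left out of all counts of calls. DESeq2 1.42.0, RLE size factors, no filter on low counts, no block, thinning to 2000 UMIs, doublet removal, a rule of at least 4 genes and leaving out each preparation were alternatives. On counts simulated with a log2 change of 2, the edgeR step recovered 85.5% of changed genes against other collagen-producing cells (14047 genes), 65% against Tnmd and Kera cells (8967 genes) and 90.5% against Prg4-high cells (12881 genes). False calls made up 5%, 3.70% and 6.70% of the calls. The simulated counts had a shared mean profile, a fixed spread and no effect of sample or of single cells. These shares therefore do not give the power of the tests on the real sums.

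Genes are named by fixed rules: the 14 highest and 8 lowest log2 differences against other collagen-producing cells and the 8 highest and 6 lowest in the other 2 comparisons (adjusted p under 0.05, the same sign at both ages, at least 50 CPM in the higher set), the 6 highest and 6 lowest old to young ratios (at least 50 CPM in 1 age, 30 UMIs in all and no cell with over 25% of them), and the genes of the lists. Shares carry Clopper-Pearson and sums Poisson 95% intervals, which cover counting error only.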

Additional observations from a re-analysis of the deposited data

Results flagged for a closer look

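Each of the following genes differed in opposite directions in the 2 samples, and that difference between the samples was not tested. Values are log2 ratios of CPM plus 1, young sample first. Against other collagen-producing cells Adamts9 stood at 1.08 and -1.14, Arhgdib at 1.10 and -1.09, and Col11a2 at 1.30 and -2.53 (83 and 13 UMIs in the members). Against Tnmd and Kera cells Igf2 stood at -1.28 and 6.22, with no Igf2 UMI in the old Tnmd and Kera cells. Against Prg4-high cells Col2a1 stood at -1.47 and 1.29 (1 cell held 99.5% of the old Col2a1 UMIs) and Gdf5 at -1.51 and 1.34 (2 and 13 UMIs). Pf4 stood at 1.89 and -2.77 (360 and 16 UMIs), and 1 cell held 95% of the young Pf4 UMIs.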

How the results depend on the processing

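The share of members was 0.805% (young) and 0.981% (old) with at least 4 of the 6 genes, 5.86% and 5.10% with at least 2, 3.70% and 5.19% without the exclusions, and 0.990% and 0.959% after thinning to 2000 UMIs. The CD24+ share was 8.97% of young members with a mixture threshold, and 34.6% and 28.1% with a threshold over collagen-producing cells. Of the 564 genes called against other collagen-producing cells, without the replicate block 134 were called. There were 1168 calls without a filter on low counts and, in alternatives chosen after seeing the data, 329 without cells with a Snorc UMI and 1036 without cells with at least 2 blood markers. The 22 calls against Tnmd and Kera cells became 36 with DESeq2, 235 without the filter, 95 after thinning, 184 without doublets, 91 with at least 4 genes, 60 without Snorc cells and 48 without cells with blood markers. Without the replicate block it was 16. The 1287 calls against Prg4-high cells became 570 with DESeq2, 1974 without the filter, 847 after thinning and, without the pairing by sample, 566. The 84 genes over 2-fold apart between the ages became 146 with at least 4 genes. For these changes the cause was not tested.

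Against Prg4-high cells, Birc5 (-0.86), Postn (-0.41) and Top2a (-1.11) turned lower with at least 4 genes, and Lyz2 (-0.68), S100a9 (-0.16) and Snorc (-0.30) without cells with blood markers. None of the 110, 17 and 162 named or listed genes called in the 3 comparisons changed sign when 1 of the 2 samples was left out, which leaves no residual degree of freedom and therefore no test and no count of calls. For the genes named by log2 difference this was fixed in advance, since they were chosen for the same sign in both samples. Among the genes named against other collagen-producing cells, DESeq2 did not call Adipoq and Ccl11, RLE factors did not call Adipoq, Slpi and Snorc, the fit without Snorc cells did not call Adipoq, Chad, Esm1 and Slpi, and the fit without the block did not call Adipoq, Chad, Crispld1, Esm1, H19, Slpi and Snorc. Of the genes named against Tnmd and Kera cells, DESeq2 did not call Retnlg and Snorc, and thinning ended Alpl and H19. Cell numbers (25 and 16) limit the comparison with Tnmd and Kera cells, and 1 sample per age limits that of the ages.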
